A study of Mus musculus with 79 samples.

Results

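The 37 genes described here serve the unfolded protein response, the integrated stress response, the p53 pathway and the BCL2 family of cell death regulators. They were chosen by symbol from a fixed list, with earlier results of these data known. They were matched through Ensembl identifiers to the GENCODE vM21 annotation, and make up 37 of the 55335 genes in the deposited count table. By role they were 13 endoplasmic reticulum (ER) chaperones and folding enzymes, 3 sensors and transcription factors of the unfolded protein response, 8 genes of the integrated stress response, 7 genes of p53 and its targets, and 6 BCL2 family members. Together they address whether an injected viral vector, or the silencing that it imposes, is accompanied by cell stress, and how large a change each comparison leaves inside its error.

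When misfolded proteins build up in the ER, the sensors IRE1 (encoded by Ern1), ATF6 and PERK raise the output of chaperones such as BiP (encoded by Hspa5). PERK and its relatives phosphorylate eIF2alpha, which favours translation of ATF4, and ATF4 induces amino acid and stress genes such as Asns, Chac1, Trib3 and Ddit3 (encoding CHOP). p53, encoded by Trp53, induces the cell cycle inhibitor Cdkn1a, its own antagonist Mdm2 and the death genes Bax, Bbc3 and Pmaip1, whereas Bcl2 and Bcl2l1 encode proteins that protect mitochondria from them.

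The libraries were RNA-seq of 50 to 100 nuclei each, sorted by flow cytometry from adult mouse visual cortex, with 79 libraries in 10 groups. All mice were wt/ki for INTACT, a Cre-dependent tag on the nuclear envelope, and wt/ki for VIP Cre, so that nuclei of vasoactive intestinal peptide (VIP) interneurons, a class of inhibitory neuron, could be sorted. Injected mice received AAV-Syn1-Kir2.1-2a-mScarlet-KASH, which carries the inwardly rectifying potassium channel Kir2.1 behind the neuronal Syn1 promoter, or the same construct with a mutant channel, Kir2.1(Mutant). Injection was at postnatal day 55 to 60, dark housing began 3 days later and lasted 10 to 12 days, and every library is labelled as 10 days dark housed. The groups were transduced VIP nuclei with Kir2.1 (10 libraries) or mutant (9), transduced neurons with Kir2.1 (8) or mutant (8), non-transduced VIP nuclei from mice given Kir2.1 (10) or mutant (9), all non-transduced nuclei from mice given Kir2.1 (10) or mutant (9), and VIP nuclei (3) and all nuclei (3) from mice with no AAV. Nuclear RNA was measured, the Syn1 promoter limits expression of the channel to neurons, and the 6 libraries without AAV were all from males.

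Promoters of some of these genes carry short elements for the factors above, and those of 5 genes that the results turn on are shown, with a single kind of element marked in each. Sequences are the 250 bases before the RefSeq gene start in GRCm38.p6, 5′ to 3′ on the gene's own strand. Capitals mark the ER stress element, CCAAT and CCACG with 9 bases of any kind between them, in Hspa5 (chr2:34771840-34772089, plus strand) and Canx (chr11:50325674-50325923, minus strand). They mark the core of the ATF4 element, TGATGNAA on either strand, in Chac1 (chr2:119350992-119351241, plus strand) and Asns (chr6:7693210-7693459, minus strand), and the core of the cyclic AMP response element, TGACGT, in Bcl2 (chr1:106714291-106714540, minus strand).
Hspa5: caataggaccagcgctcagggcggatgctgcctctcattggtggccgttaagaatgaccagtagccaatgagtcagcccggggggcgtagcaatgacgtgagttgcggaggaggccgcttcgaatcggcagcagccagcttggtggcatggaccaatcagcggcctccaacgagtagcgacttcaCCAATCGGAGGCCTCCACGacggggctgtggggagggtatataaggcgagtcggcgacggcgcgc
Canx: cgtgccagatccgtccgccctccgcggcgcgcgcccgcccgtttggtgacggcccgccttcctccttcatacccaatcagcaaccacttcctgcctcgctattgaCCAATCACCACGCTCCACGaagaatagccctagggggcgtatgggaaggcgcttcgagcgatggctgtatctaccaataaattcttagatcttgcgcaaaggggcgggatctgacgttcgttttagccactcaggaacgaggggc
Chac1: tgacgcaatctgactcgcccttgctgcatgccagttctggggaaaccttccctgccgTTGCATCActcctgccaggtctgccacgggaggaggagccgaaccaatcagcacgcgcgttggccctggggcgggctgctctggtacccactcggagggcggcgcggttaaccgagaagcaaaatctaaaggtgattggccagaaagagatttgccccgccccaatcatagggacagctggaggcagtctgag
Asns: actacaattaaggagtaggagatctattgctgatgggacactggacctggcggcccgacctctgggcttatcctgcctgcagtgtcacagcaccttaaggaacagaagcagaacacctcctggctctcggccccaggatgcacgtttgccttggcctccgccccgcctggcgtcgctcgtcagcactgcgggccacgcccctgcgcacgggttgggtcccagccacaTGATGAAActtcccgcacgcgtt
Bcl2: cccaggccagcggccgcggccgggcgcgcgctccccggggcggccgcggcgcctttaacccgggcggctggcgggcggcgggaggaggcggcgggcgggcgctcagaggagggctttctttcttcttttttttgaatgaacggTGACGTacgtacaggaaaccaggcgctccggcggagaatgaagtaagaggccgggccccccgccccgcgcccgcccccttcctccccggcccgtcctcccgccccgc
Promoters were listed for 34 of the 37 genes. Searched on both strands, the ER stress element lay in 7 of 12 chaperone promoters (Calr, Canx, Creld2, Dnajc3, Hsp90b1, Hspa5 and Pdia6), against 0.113% of all 32851 promoters in the table. A second form, ATTGG and CCACG with 1 base between them, was found in Herpud1 and in 0.0304% of all promoters. The ATF4 core was in Asns, Atf3, Chac1 and Herpud1, against 3.45% of all promoters. TGACGT was in Atf3, Bcl2, Canx, Hspa5 and Ppp1r15a, against 6.47%, and its full palindrome TGACGTCA, which contains it, was in Ppp1r15a, against 1.55%. In the Hspa5 and Canx sequences above, TGACGT is left in lower case. A match describes the letters and is not evidence of a bound site or of a cause.

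Total counts per library ran from 3219899 to 9267246, with a median of 6170915. Levels below are library-scaled counts (CPM) after trimmed-mean (TMM) scaling over all 79 libraries, given as mean ± SD. Atf3, Eda2r and Pmaip1 were barely detected, with 0 counts in 60, 68 and 70 libraries, and Trib3 had 0 in 39. Against the median profile of their own group, 9 libraries stood apart by their correlation across genes, among them Kir2.1 transduced VIP libraries 1, 6 and 10 and mutant transduced VIP library 1. The transgene was visible through Kcnj2, which encodes Kir2.1: it stood at 595 ± 231 CPM (n = 10) in Kir2.1 and 776 ± 315 CPM (n = 9) in mutant transduced VIP nuclei, at 521 ± 370 and 416 ± 132 CPM (n = 8 each) in transduced neurons, at 15.4 ± 8.41 and 22.7 ± 8.11 CPM in their non-transduced VIP counterparts and at 7.11 ± 7.94 CPM (n = 3) in VIP nuclei without AAV. Syne2, whose protein ends in a KASH domain, was higher with transduction by 3.36 on the log2 scale with Kir2.1 and by 3.34 with the mutant. Nr4a1, an activity-regulated gene, and Mlip were lower with Kir2.1 than with the mutant, by log2 differences of -2.86 and -2.11 in transduced VIP nuclei (adjusted p = 3.3e-06 and 1.36e-09). In transduced neurons the differences were -3.70 and -1.64. Both genes serve here as response checks and not as independent evidence of silencing. Intervals are 95% intervals of a single gene's fold change from the same edgeR quasi-likelihood test, not widened for the number of genes.

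Silencing was compared with the mutant vector in transduced cells, and there the anti-apoptotic gene Bcl2 fell and was the one member called by edgeR; DESeq2's Wald test called Bcl2 in VIP nuclei, and Bcl2 and Pdia6 in neurons. In transduced VIP nuclei 1 of the 35 genes tested was called, against 1.39% of all 21207 genes, and in transduced neurons 1 of 32, against 5.63% of 15949. Both calls were Bcl2 and both were falls, the direction of 1.03% and 3.45% of all genes, while 0.354% and 2.18% rose. edgeR called no chaperone, sensor, integrated stress response or p53 gene in either population, where 0 and 5 of them had an unadjusted p below 0.05. In neurons these were Pdia6, Pdia4, Ddit3 and Trp53, higher with Kir2.1, and Cdkn1a, lower. No share of all genes at that level is set beside this count, so it is not read as a result about these genes.

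In Kir2.1 transduced VIP nuclei the 10 libraries had 3.98, 20.9, 22, 23.1, 30.5, 31.0, 38.7, 43.0, 44.2 and 65.9 CPM of Bcl2. In mutant transduced VIP nuclei the 9 libraries had 43.3, 47.3, 56.9, 58.6, 65.6, 66.4, 72.6, 113 and 117 CPM. Of the Kir2.1 libraries 8 lay below every mutant library, and the highest Kir2.1 library reached into the middle of the mutant range. Bcl2 averaged 32.3 ± 16.8 CPM with Kir2.1 and 71.2 ± 26.5 CPM with the mutant, a log2 difference of -1.12 (95% interval -1.66 to -0.59, adjusted p = 0.0150), or 2.17-fold lower. In these bulk libraries fewer cells of a type and less RNA per cell cannot be told apart. The call missed the threshold when only these 2 groups were fitted (adjusted p = 0.0506), and held when each of the 19 libraries was left out (adjusted p from 0.00213 to 0.0465). Without the libraries that stand apart the difference was -0.98 (adjusted p = 0.00735).

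In Kir2.1 transduced neurons, sorted as all nuclei with the vector, Bcl2 stood at 12.5, 14.5, 18.4, 19.2, 20.2, 20.7, 23.4 and 45.5 CPM. In mutant transduced neurons it stood at 51.9, 57.3, 57.5, 58.3, 61.0, 68.6, 94.0 and 111 CPM. No Kir2.1 library reached the lowest mutant library. The means were 21.8 ± 10.2 and 69.9 ± 21.0 CPM, a log2 difference of -1.62 (-2.10 to -1.15, adjusted p = 7.58e-05), or 3.08-fold lower with Kir2.1, and leaving out each library kept the adjusted p between 5.69e-06 and 0.000325. Without the library that stands apart it was -1.56 (adjusted p = 0.000163). The fall in neurons was not shown to differ from that in VIP nuclei: the interaction of vector and population was -0.54 (-1.37 to 0.29, adjusted p = 0.979), in a comparison where 0.316% of 18359 genes and 0 of 34 members were called by edgeR and DESeq2 (0.114% and 0.202% of genes by direction). Its smallest unadjusted p belonged to Trib3, a pseudokinase gene induced by CHOP (adjusted p = 0.533), which was at 0 in all 8 Kir2.1 neuron libraries and reached 2.23 CPM with the mutant, and the next to Pdia4, an ER disulfide isomerase gene (0.81, adjusted p = 0.899).

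**Figure D1:**
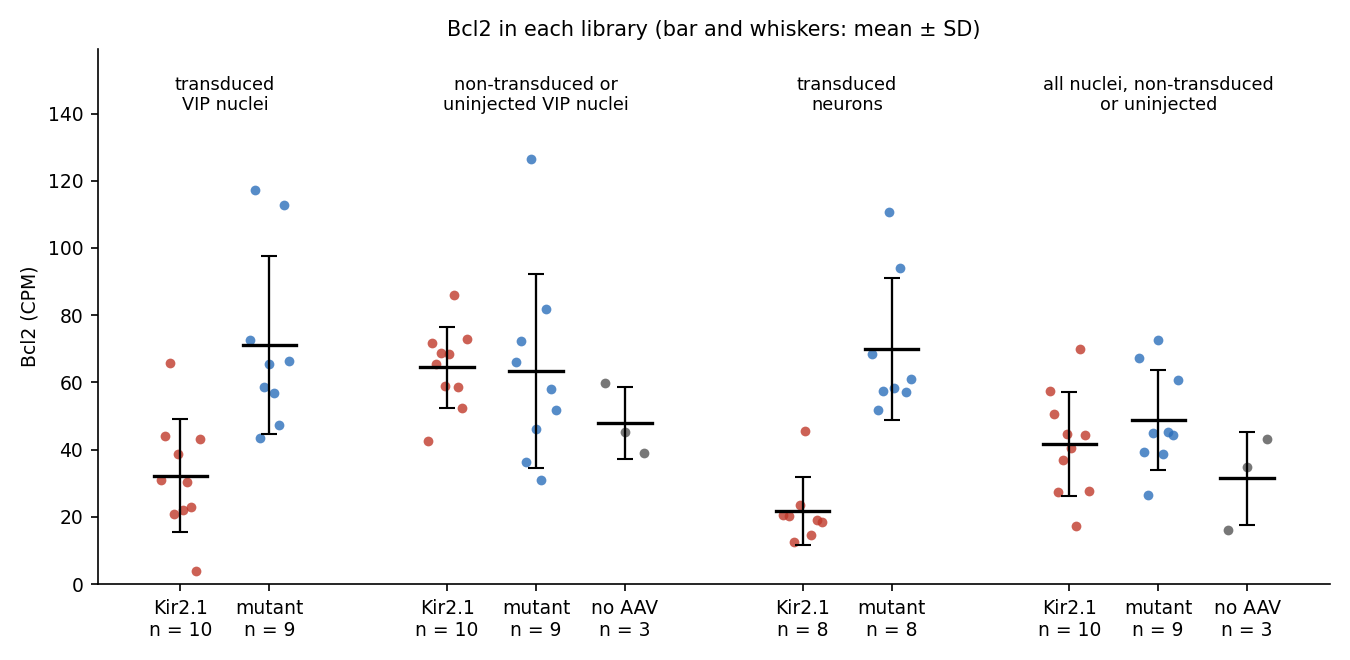
Bcl2 in each of the 79 libraries, in CPM on TMM scaling, by group, with 1 point per library and the mean ± SD beside it. Kir2.1 transduced neurons averaged 21.8 CPM against 69.9 CPM with the mutant, with no overlap, and Kir2.1 transduced VIP nuclei averaged 32.3 CPM against 71.2 CPM, with overlap.

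In nuclei sorted as non-transduced, Bcl2 was close between the vectors. It averaged 64.6 ± 12.0 CPM in non-transduced VIP nuclei of Kir2.1 mice (42.7 to 86.0), with a log2 difference of 0.03 from those of mutant mice (31.1 to 127 CPM). In all non-transduced nuclei it ran from 17.4 to 69.8 CPM with Kir2.1 and from 26.4 to 72.7 CPM with the mutant, a log2 difference of -0.22. VIP nuclei without AAV had 59.8, 39.1 and 45.2 CPM, and all nuclei without AAV had 35, 16.2 and 43.2 CPM. The VIP values without AAV lay inside the range of Kir2.1 transduced VIP libraries and below the mean of mutant transduced ones. The range of the mutant transduced VIP libraries held 59.8 and 45.2 CPM.

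Levels of other genes moved beside Bcl2. In transduced VIP nuclei the summed level of 5 excitatory neuron markers was 1021 ± 172 CPM with Kir2.1 (845 to 1342) and 555 ± 50.0 CPM with the mutant (512 to 642), although of these markers Camk2a alone was called (log2 difference 0.89, adjusted p = 1.52e-06). The sum of 6 VIP neuron markers was 2769 ± 1076 CPM with Kir2.1 (1167 to 4497) and 6168 ± 2821 CPM with the mutant (1015 to 11071), and Vip, Cck and Crh were each lower. In transduced neurons the excitatory sum was 1367 ± 171 against 1408 ± 153 CPM and overlapped, whereas the sum of 4 GABAergic markers was 97.6 ± 33.1 CPM with Kir2.1 (46.6 to 150) and 200 ± 52.2 CPM with the mutant (110 to 277). The part of these differences in the Bcl2 result was not tested. An antisense transcript, D630008O14Rik, shares 558 exonic bases with Bcl2, and the library kit does not mark strand, so reads of that stretch cannot be told apart. Over all libraries it held 2308 counts against 24376 for Bcl2, and it was also lower with Kir2.1 in transduced neurons (0.727 ± 1.06 against 8.40 ± 3.21 CPM, log2 difference -3.45, adjusted p = 0.00564).

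No other BCL2 family member was called by edgeR or DESeq2. The anti-apoptotic Bcl2l1 (encoding BCL-XL) averaged 45.1 ± 9.57 CPM in Kir2.1 and 38.3 ± 11 CPM in mutant transduced VIP nuclei, and its interval ran from 0.899-fold to 1.57-fold. For the pore former Bax the interval was 0.598-fold to 1.52-fold there and 0.615-fold to 1.65-fold in transduced neurons. The BH3-only genes were too sparse for narrow limits: Bbc3 (encoding PUMA) spanned 0.365-fold to 5.14-fold and Bcl2l11 (encoding BIM) 0.409-fold to 6.49-fold in transduced VIP nuclei, and Pmaip1 (encoding NOXA) had no counts in any transduced VIP library.

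edgeR called none of the 13 ER chaperone genes in either silenced population, and DESeq2 called Pdia6 in neurons. The sum of the 13 chaperone genes was 1481 ± 348 CPM (914 to 1928) in Kir2.1 and 1362 ± 440 CPM (424 to 1783) in mutant transduced VIP nuclei, and the groups overlapped. Hspa5 averaged 188 ± 69.7 against 181 ± 84.8 CPM, with an interval of 0.676-fold to 1.62-fold. For Hsp90b1, which encodes the chaperone GRP94, the interval was 0.812-fold to 1.45-fold. In 11 of the 13 chaperone genes the whole interval lay within 2-fold in either direction, and in 12 within 4-fold; the widest was Sdf2l1, at 0.495-fold to 8.68-fold. Their median log2 difference was 0.12, against 0.04 over all genes tested.

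In transduced neurons the disulfide isomerase gene Pdia6 came nearest to the threshold after Bcl2. Its lowest, median and highest levels were 38.1, 118 and 302 CPM with Kir2.1 and 53.1, 75.3 and 112 CPM with the mutant, for a log2 difference of 0.80 (0.24 to 1.35, adjusted p = 0.0835). The Kir2.1 libraries reached both below and above the mutant range. Pdia4, a related isomerase, had a log2 difference of 0.65 (adjusted p = 0.229), Hspa5 of 0.43 with an interval of 0.916-fold to 1.99-fold, and Hsp90b1 of 0.16 with 0.868-fold to 1.43-fold. The chaperone sum was 1145 ± 512 CPM with Kir2.1 and 971 ± 165 CPM with the mutant. Pdia6 passed the threshold under DESeq2's Wald test and when Kir2.1 neuron library 6 or 10 was left out. Library 10 is the only neuron library that stands apart.

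Of the sensors and their factors, Xbp1, the transcription factor spliced by IRE1, had 53.1 ± 28.6 CPM in Kir2.1 and 74.4 ± 41 CPM in mutant transduced VIP nuclei, an interval of 0.409-fold to 1.26-fold. Atf6 spanned 0.725-fold to 1.35-fold there and had the narrowest interval of any member in transduced neurons, at 0.732-fold to 1.1-fold. In the integrated stress response, Atf4 spanned 0.666-fold to 1.53-fold in transduced VIP nuclei and 0.878-fold to 1.73-fold in transduced neurons. Ddit3, whose product CHOP promotes cell death under lasting ER stress, had 63.0 ± 20.4 against 46.9 ± 11.5 CPM in transduced VIP nuclei (log2 difference 0.44, -0.02 to 0.91, adjusted p = 0.480) and 43.0 ± 11.9 against 30.4 ± 12.4 CPM in transduced neurons (0.55, 0.03 to 1.07, adjusted p = 0.238). The groups overlapped in each population, and neither difference passed. Ddit3 is listed under a pair of gene identifiers that share 105 exonic bases, and these levels are of the one with more counts (22290 against 13424); the other differed by 0.56 (adjusted p = 0.512) and 0.51 (adjusted p = 0.338).

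No p53 gene was called by edgeR or DESeq2. Trp53 spanned 0.763-fold to 1.64-fold in transduced VIP nuclei and 1.04-fold to 2.38-fold in transduced neurons, where it averaged 23.0 ± 7.94 CPM with Kir2.1 and 15.2 ± 6.51 CPM with the mutant (adjusted p = 0.213). Its target and antagonist Mdm2 was held to 0.740-fold to 1.49-fold and to 0.837-fold to 1.38-fold. The cell cycle inhibitor Cdkn1a, the p53 target most often used as a readout, was low throughout, with 1.86 ± 2.65 against 6.39 ± 4.56 CPM in transduced VIP nuclei and 1.15 ± 1.33 against 3.90 ± 2.90 CPM in transduced neurons. Its log2 differences were -1.74 (-3.75 to 0.20, adjusted p = 0.533) and -1.69 (-3.36 to -0.06, adjusted p = 0.252), so its point estimates lay below the mutant in both.

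**Figure D2:**
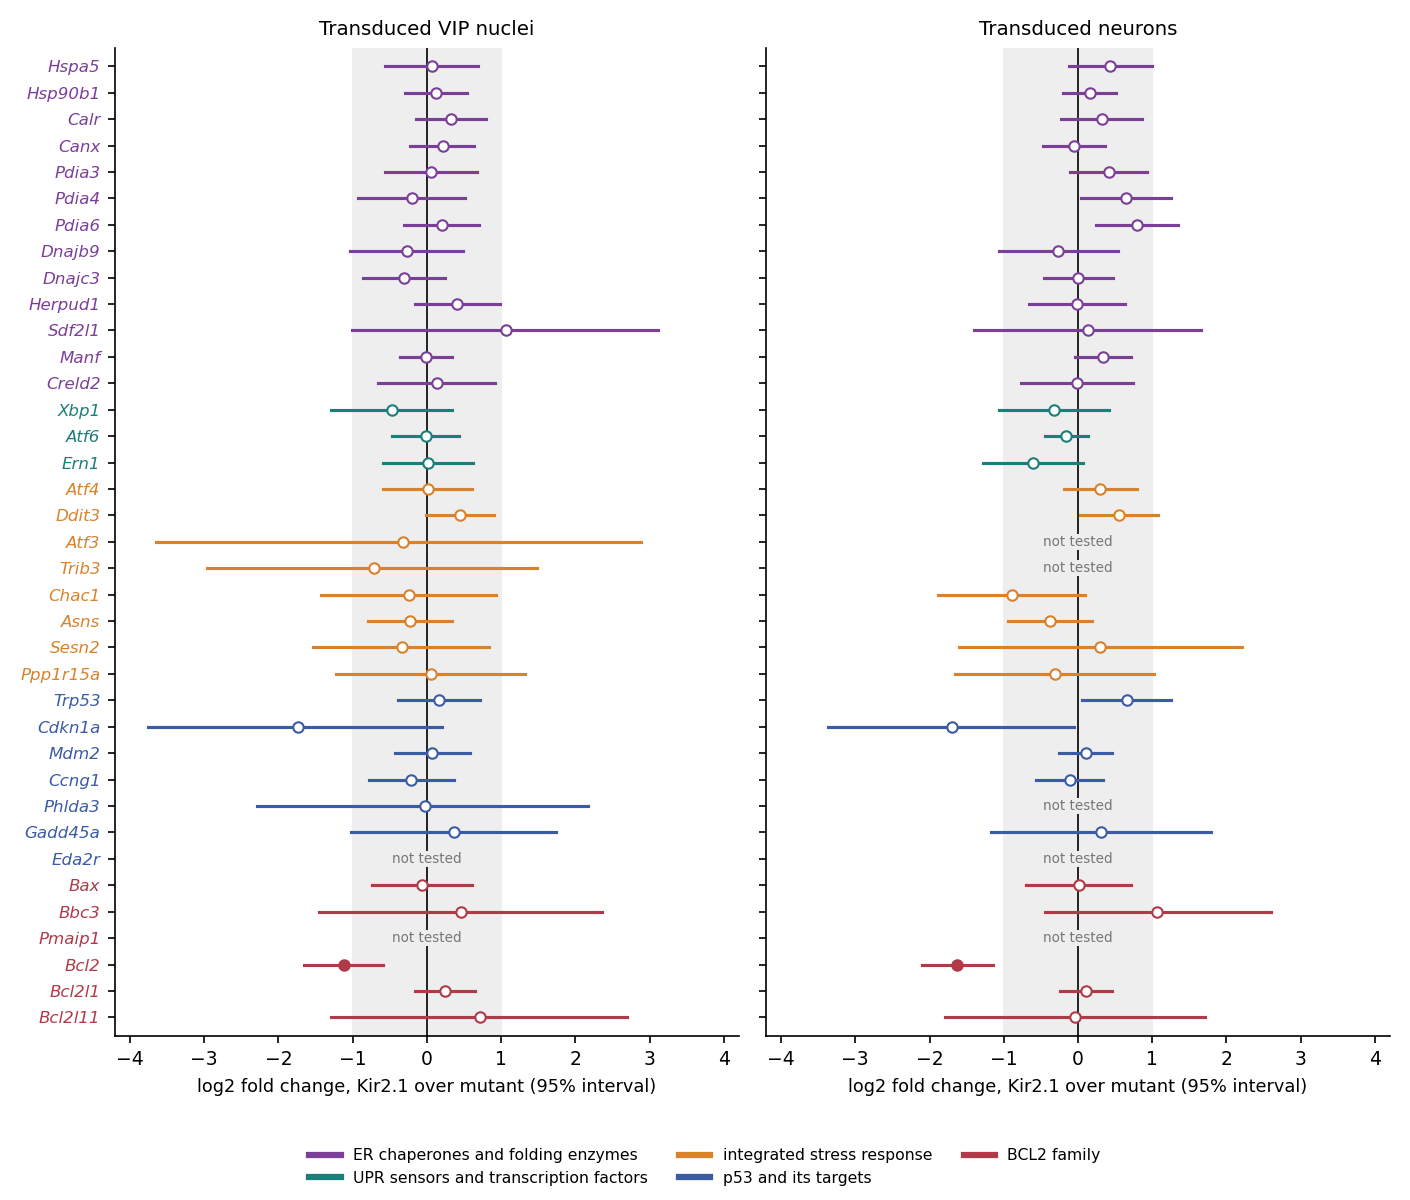
Log2 fold change of each of the 37 genes, Kir2.1 over mutant, with its 95% interval, in transduced VIP nuclei and transduced neurons; colours mark roles, filled points an adjusted p below 0.05, and the grey band changes within 2-fold. Bcl2 is the filled point in both panels, at -1.12 and -1.62, and genes marked as not tested did not pass the filter on low counts.

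The size of change that these comparisons could bound was narrower for abundant genes. In transduced VIP nuclei a 2-fold rise lay outside the interval for 27 of 35 members. The whole interval was within 2-fold for 21, or 60%, against 34% of all genes tested and 86.8% of the 5376 genes at or above the members' median level. The 60% includes members below that level and the 86.8% leaves such genes out, so these shares are not at a like depth. In transduced neurons a 2-fold rise lay outside the interval for 22 of 32 members and the interval was within 2-fold for 16. The narrowest interval in transduced VIP nuclei was that of Manf, an ER-resident survival factor, at -0.36 to 0.34 on the log2 scale, and the widest was that of the stress factor Atf3, at -3.65 to 2.89; in neurons Sesn2, at -1.60 to 2.21, was the widest. The interval reached beyond 4-fold for 7 members in VIP nuclei and 4 in neurons, so for these the comparison bounds little.

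By edgeR the wider lists of the same pathways gave 0 calls in transduced VIP nuclei, where 1.39% of all 21207 genes were called. The genes tested were 30 of the unfolded protein response and ER-associated degradation, 24 of the integrated stress response and 23 of p53 and DNA damage. A further 23 were of cell death and 21 of heat shock and oxidative stress. Unadjusted p values below 0.05 numbered 3, 4, 3, 0 and 0, with no share of all genes set beside them. In transduced neurons 1 of 30, 1 of 18, 1 of 20, 1 of 19 and 0 of 16 were called. That comparison called 5.63% of all 15949 genes (2.18% higher and 3.45% lower), so these calls are not read as a result about the lists. Derl3, a channel component of ER-associated degradation, was higher with Kir2.1 (6.53 ± 3.44 against 0.805 ± 1.19 CPM, adjusted p = 0.0337), as was Psrc1, a microtubule regulator described as a p53 target (53.7 ± 16.2 against 21.2 ± 5.06 CPM, adjusted p = 0.000207). Gars, the glycyl-tRNA synthetase gene, was lower (33.6 ± 8.73 against 54.9 ± 8.57 CPM, adjusted p = 0.0410), and so was Diablo, whose product SMAC antagonises inhibitors of apoptosis (27.0 ± 5.41 against 46.5 ± 8.43 CPM, adjusted p = 0.0195). Of these 4 genes 2 rose and 2 fell, each from a different list.

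Nuclei sorted as non-transduced, from the same tissue as silenced neurons, were compared next. In all non-transduced nuclei Kcnj2 was at 33.0 ± 44.5 CPM (highest 149) in Kir2.1 and 15.8 ± 6.21 CPM in mutant mice, and at 5.59 ± 1.71 CPM without AAV. None of 35 members was called by edgeR between Kir2.1 and mutant mice in non-transduced VIP nuclei, and none of 36 in all non-transduced nuclei; DESeq2 called 0 as well, 1 member in each had an unadjusted p below 0.05, and 0% of all genes were called in both. In non-transduced VIP nuclei the smallest p was that of Trp53, with lowest, median and highest levels of 20.4, 25.5 and 36.5 CPM in Kir2.1 mice and 11.9, 15.7 and 29.4 CPM in mutant mice (log2 difference 0.61, 0.05 to 1.16, adjusted p = 0.506). Next was Ppp1r15a, encoding the eIF2alpha phosphatase subunit GADD34, at 9.75 ± 5.99 against 4.0 ± 3.34 CPM (1.28, adjusted p = 0.575). The ranges of both genes overlapped between the vectors.

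In all non-transduced nuclei the smallest p values were those of Dnajc3, which encodes a co-chaperone and inhibitor of PERK, at 26.0 ± 7.74 against 39.4 ± 19.5 CPM (log2 difference -0.58, -1.12 to -0.05, adjusted p = 0.802), and of Herpud1, an ER stress target that works in protein degradation, at 63.3 ± 27.4 against 47.3 ± 11.9 CPM (0.43, adjusted p = 0.882). Of the members, 21 of 35 and 18 of 36 were held within 2-fold in either direction. A 2-fold rise lay outside the interval for 22 and 21 of them. Hspa5 spanned 0.769-fold to 1.84-fold in non-transduced VIP nuclei and 0.943-fold to 2.05-fold in all non-transduced nuclei.

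Transduced nuclei were then set against non-transduced nuclei of mice with the same vector, which share an injection. With Kir2.1, 0 of 35 members passed by edgeR, against 0.769% of all 21207 genes (0.17% higher and 0.599% lower). An unadjusted p below 0.05 was found for 3 members, with no share of all genes set beside them. DESeq2 called 1. That gene was Bcl2, at 32.3 ± 16.8 CPM in transduced and 64.6 ± 12.0 CPM in non-transduced VIP nuclei (log2 difference -0.98, -1.51 to -0.46, adjusted p = 0.0539). It passed with DESeq2's Wald test (0.0177), with DESeq2 size factors (0.0472), without the libraries that stand apart (-0.97, adjusted p = 0.0101), and when transduced library 6 or non-transduced library 7 was left out. Canx, an ER lectin chaperone, was at 216 ± 48.8 against 157 ± 55.5 CPM (0.47, adjusted p = 0.418), and Herpud1 at 113 ± 32.5 against 76.3 ± 31.9 CPM (0.58, adjusted p = 0.496).

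With the mutant vector, 0 of 35 members passed by edgeR and by DESeq2, against 0.00943% of all genes, and 0 had an unadjusted p below 0.05. The smallest p values were those of Asns, the asparagine synthetase gene and an ATF4 target, at 76.0 ± 22.9 in transduced and 52.5 ± 27.5 CPM in non-transduced VIP nuclei (log2 difference 0.53, adjusted p = 1), and of Atf3, with medians of 0 CPM in both groups and highest libraries of 9.61 and 1.52 CPM. Bcl2 differed by 0.16. Point estimates were above 0 for 27 of the 35 members, with a median of 0.20, against 48.9% of all genes and a median of -0.01. Hspa5 spanned 0.730-fold to 1.79-fold and Hsp90b1 0.773-fold to 1.40-fold.

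A 2-fold rise with transduction lay outside the interval for 25 of 35 members with Kir2.1 and 18 of 35 with the mutant, and whole intervals were within 2-fold for 19 and 18. The interaction of vector and transduction, which asks whether transduction acts differently with the 2 vectors, called 0 of 35 members by edgeR and by DESeq2 (0.401% of all genes, 0.123% with a positive and 0.278% with a negative term), with 1 at an unadjusted p below 0.05. This was Bcl2, with an interaction of -1.15 on the log2 scale (-1.90 to -0.39, p = 0.00370, adjusted p = 0.215). Cdkn1a was next, at -2.35 (-5.12 to 0.38, adjusted p = 0.763).

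**Figure D3:**
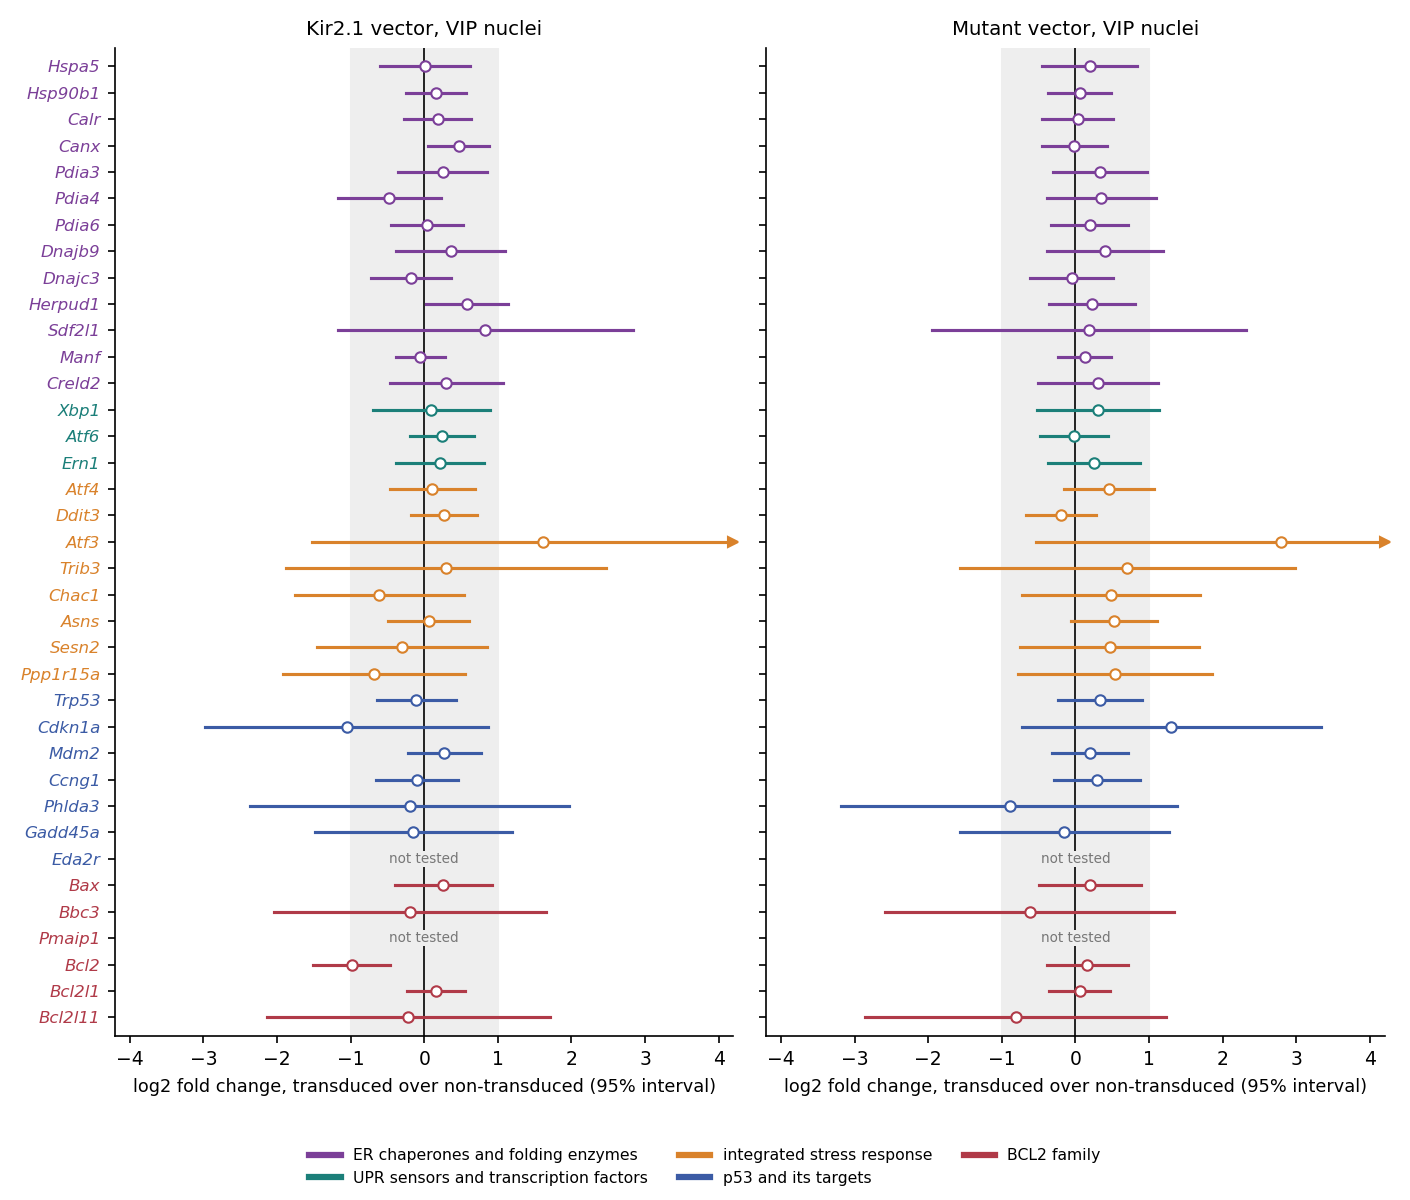
Log2 fold change of each of the 37 genes, transduced over non-transduced VIP nuclei, with its 95% interval, for mice given Kir2.1 and mice given the mutant; colours mark roles and the grey band changes within 2-fold. No point is filled, and with Kir2.1 the interval of Bcl2, -1.51 to -0.46, lies below 0.

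Injected mice were also compared with mice that received no AAV. Across 6 such comparisons 0 members passed by edgeR or by DESeq2, and the point estimates of the ER chaperones lay mostly below those of uninjected mice. Of the 13 chaperone genes, 12 were lower in Kir2.1 and 13 in mutant transduced VIP nuclei, 13 and 13 in non-transduced VIP nuclei, and 12 and 12 in all non-transduced nuclei. These comparisons share their uninjected libraries (3 for VIP nuclei and 3 for all nuclei), so they do not repeat each other. Of all genes, edgeR called 0.222% in Kir2.1 (0.0707% higher, 0.151% lower) and 0.0283% in mutant transduced VIP nuclei (all higher), 0.00943% and 0% in Kir2.1 and mutant non-transduced VIP nuclei, and 0.178% (0.173% higher, 0.00468% lower) and 0.225% (0.211% higher, 0.014% lower) in all nuclei of Kir2.1 and mutant mice. Members with an unadjusted p below 0.05 numbered 3, 4, 6, 10, 6 and 10 in that order, of which 3, 3, 6, 10, 5 and 9 were lower, or 8.57%, 8.57%, 17.1%, 28.6%, 13.9% and 25% of members. Among all genes 2.93%, 2.83%, 1.93%, 4.34%, 2.17% and 3.91% were lower at that level, and 6.31%, 6.45%, 5.09%, 8.43%, 6.8% and 8.26% higher. Leaving out any 1 uninjected VIP library brought the genes called down to between 17 and 22, against 47, in Kir2.1 and to between 1 and 3, against 6, in mutant transduced VIP nuclei. All of the uninjected libraries were male, whereas injected groups held both sexes. Fits of males alone also called 0 members in each comparison. The 12 medians checked, of chaperones and of all members, then moved by less than the spread of the uninjected libraries, while 4 of 12 counts of members or genes called moved. With sex as a covariate 1 of the 12 medians moved further than that spread.

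The chaperone sum was 1481 ± 348 CPM (highest 1928) in Kir2.1 and 1362 ± 440 CPM (highest 1783) in mutant transduced VIP nuclei. In non-transduced VIP nuclei it was 1317 ± 361 CPM (highest 1726) with Kir2.1 and 1238 ± 418 CPM (highest 1698) with the mutant. VIP nuclei without AAV had 2003, 2541 and 1883 CPM. Of these 4 groups, Kir2.1 transduced nuclei alone reached into the uninjected range. In all nuclei the sum was 1057 ± 323 CPM (781 to 1757) with Kir2.1 and 913 ± 218 CPM (475 to 1163) with the mutant, against 1647, 1905 and 1214 CPM without AAV.

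**Figure D4:**
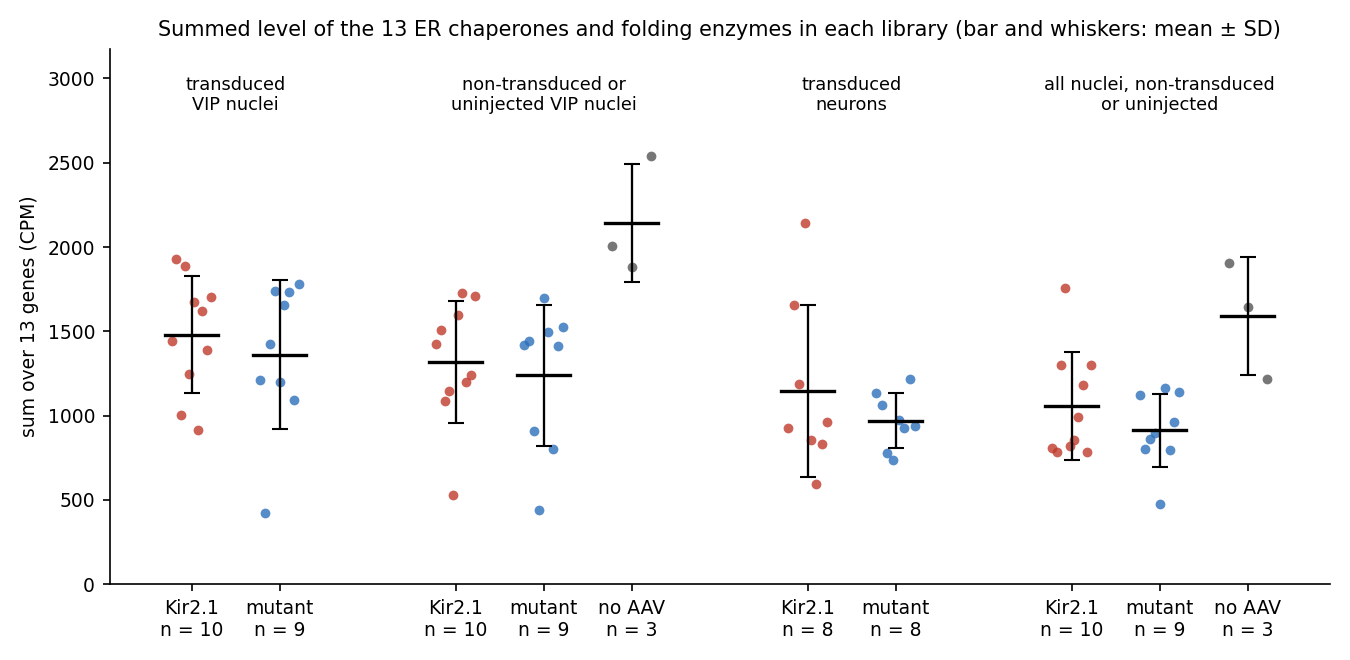
Summed level of the 13 ER chaperone and folding enzyme genes in each of the 79 libraries, in CPM, by group, with the mean ± SD. Mutant transduced and both sets of non-transduced VIP libraries reach at most 1783 CPM, against 1883 to 2541 CPM in VIP nuclei without AAV.

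Median log2 differences of the 13 chaperones against no AAV were -0.57 and -0.63 in Kir2.1 and mutant transduced VIP nuclei, -0.71 and -0.85 in non-transduced VIP nuclei and -0.55 and -0.91 in all non-transduced nuclei, where the medians of all genes tested were 0.10, 0.08, 0.12, 0.12, 0.09 and 0.11. Without uninjected VIP library 2, which had the highest sum, the first 2 medians were -0.32 and -0.40.

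Single genes show the size of these differences. Calr, encoding the chaperone calreticulin, was at 135 ± 46.9 CPM (highest 214) in mutant transduced VIP nuclei, against 221, 320 and 242 CPM without AAV (log2 difference -0.95, -1.66 to -0.30, adjusted p = 0.419). Hspa5 was at 181 ± 84.8 CPM there, against 286, 364 and 370 CPM (-0.90, adjusted p = 0.537). All mutant libraries lay below the uninjected ones for Calr, whereas for Hspa5 the highest mutant library, at 290 CPM, passed the lowest uninjected one. In Kir2.1 transduced VIP nuclei the smallest p values were those of Pdia4, at 36.9 ± 22.2 against 84.6, 121 and 32.0 CPM (-1.08, adjusted p = 0.522), and Xbp1, at 53.1 ± 28.6 against 131, 137 and 88.8 CPM (-1.14, adjusted p = 0.536).

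Calr also had the smallest p in both groups of non-transduced VIP nuclei. In VIP nuclei of Kir2.1 mice Calr stood at 148 ± 49.3 CPM (log2 difference -0.81) and Canx at 157 ± 55.5 CPM, against 256, 239 and 283 CPM without AAV (-0.71, adjusted p = 0.672 for both). In those of mutant mice Calr stood at 131 ± 43.9 CPM (-0.98, adjusted p = 0.271) and Asns at 52.5 ± 27.5 CPM, against 91.5, 108 and 130 CPM (-1.05, adjusted p = 0.309). In all nuclei of Kir2.1 mice Xbp1 was at 38.4 ± 25.0 CPM, against 128, 169 and 55.3 CPM (-1.61, -2.66 to -0.68, adjusted p = 0.196), and Pdia3 at 123 ± 45.2 CPM, against 188, 319 and 178 CPM (-0.89, adjusted p = 0.380). In all nuclei of mutant mice Hspa5 was at 119 ± 52.3 CPM (highest 192), against 289, 345 and 213 CPM, with no overlap (-1.25, -2.10 to -0.48, adjusted p = 0.195), and Pdia3 at 117 ± 34.8 CPM (-0.97, adjusted p = 0.222).

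With 3 uninjected libraries the limits against no AAV were wide, and they bounded rises better than falls. A 2-fold rise lay outside the interval for 24, 22, 23 and 24 of 35 members in Kir2.1 and mutant transduced and Kir2.1 and mutant non-transduced VIP nuclei, and for 21 and 22 of 36 in all nuclei. Whole intervals were within 2-fold for 6, 3, 6, 4, 8 and 5 members. For Ddit3 the interval was 0.623-fold to 1.56-fold in Kir2.1 and 0.455-fold to 1.15-fold in mutant transduced VIP nuclei, and for Trp53 it was 0.744-fold to 2.25-fold and 0.659-fold to 2.02-fold. Median shares of mitochondrial counts were 0.493% and 0.476% in Kir2.1 and mutant transduced VIP nuclei, 0.683% and 0.575% in Kir2.1 and mutant non-transduced VIP nuclei, and 0.498% in VIP nuclei without AAV. In all nuclei they were 0.497% and 0.535% with Kir2.1 and mutant, against 0.434% without AAV. The part of these shares in the differences was not tested.

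VIP nuclei and all nuclei were compared without silencing. The log2 differences weight Kir2.1, mutant and no AAV mice equally, whereas the CPM are plain means over libraries, so their ratio can differ from the log2 difference. In non-transduced and uninjected nuclei, 11 of the 37 members differed between VIP nuclei and all nuclei, 8 higher and 3 lower in VIP nuclei. The comparison called 27.4% of 22855 genes (10.7% higher and 16.7% lower). With both directions together the members' share was close to that of all genes. By direction it was not, since more members were higher than lower and more of all genes were lower than higher. Atf6, the ER stress sensor, was lower, at 63.5 ± 21.6 CPM (n = 22) in VIP nuclei and 125 ± 24.5 CPM (n = 22) in all nuclei (log2 difference -1.05, -1.34 to -0.77, adjusted p = 4.72e-08). Its lowest, median and highest libraries were 36.4, 57.5 and 111 CPM against 59.4, 129 and 179 CPM, so the medians lay far apart while the ranges overlapped.

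Of the 13 chaperone genes 3 were higher in VIP nuclei and 0 lower. Hsp90b1 was at 305 ± 97.7 against 188 ± 54.5 CPM (log2 difference 0.73, adjusted p = 0.000125), Canx at 185 ± 62.1 against 123 ± 35.7 CPM (0.61, adjusted p = 0.00162) and Calr at 157 ± 62.5 against 114 ± 50.3 CPM (0.47, adjusted p = 0.0433). Hspa5 spanned 0.880-fold to 1.70-fold and was not called. A pseudogene on the other strand, 1810014B01Rik, shares 415 exonic bases with Hsp90b1 and was higher by 0.68, so their reads cannot be told apart in that stretch. Shorter stretches are shared by Manf with Dcaf1 (146 bases), Bax with Gm45808 (192) and Pdia6 with Atp6v1c2 (50).

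Of the 8 integrated stress response members 4 were higher in VIP nuclei, and Atf3, Trib3, Sesn2 and Ppp1r15a were not called. Chac1, which degrades glutathione, had the largest difference among the members called, at 14.6 ± 8.16 against 3.94 ± 4.52 CPM (log2 difference 1.82, 0.86 to 2.79, adjusted p = 0.00433). Ddit3 was at 54.7 ± 18.1 against 34.3 ± 12.6 CPM (0.68, adjusted p = 0.00498), Asns at 64.7 ± 36.4 against 42.3 ± 16.2 CPM (0.70, adjusted p = 0.0175) and Atf4 itself at 66.1 ± 28.2 against 46.8 ± 17.0 CPM (0.51, adjusted p = 0.0449). Mars, on the strand opposite to Ddit3, shares 68 exonic bases with it and was also higher (adjusted p = 9.5e-06). In the wider list of this response 11 of 24 genes were higher and 1 lower, among them the ATF4 targets Nupr1 (14.1 ± 7.47 against 2.59 ± 2.24 CPM, log2 difference 2.68), Atf5 (2.79) and Mthfd2 (1.45), the amino acid transporter genes Slc7a11, Slc7a5 and Slc3a2 (1.80, 0.81 and 0.68) and the tRNA synthetase genes Aars, Gars and Nars (0.82, 0.62 and 0.61), with Vldlr and Eif2ak4 also higher. The median of that list was 0.63, against -0.05 over all genes.

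Survival genes were split. Bcl2 was higher in VIP nuclei, at 61.8 ± 20.5 against 43.2 ± 15.5 CPM (log2 difference 0.54, adjusted p = 0.0156), whereas Bcl2l1 was lower, at 39.8 ± 10.6 against 65.0 ± 21.2 CPM (-0.58, adjusted p = 0.00334). Mdm2 was lower, at 50.2 ± 16.7 against 70.3 ± 16.6 CPM (-0.45, adjusted p = 0.0433), and Trp53 spanned 0.837-fold to 1.40-fold. In the wider cell death list 4 of 27 genes were lower in VIP nuclei and 0 higher by edgeR (2 rises and 5 falls at an unadjusted p below 0.05): Casp8, Gsdmd, Mlkl and Bcl2a1b, each below 1 CPM on average in VIP nuclei. The p53 list gave 5 higher (Zmat3, Perp, Ddb2, Tigar and Atr) and 4 lower (Plk2, Gtse1, Psrc1 and Tnfrsf1a) of 25, the list of the unfolded protein response 3 higher (Derl1, Selenok and Mbtps2) and 4 lower (Sec61a1, Sec24d, Creb3l2 and Wfs1) of 30, and the heat shock list Dnaja1 alone, higher, of 21.

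**Figure D5:**
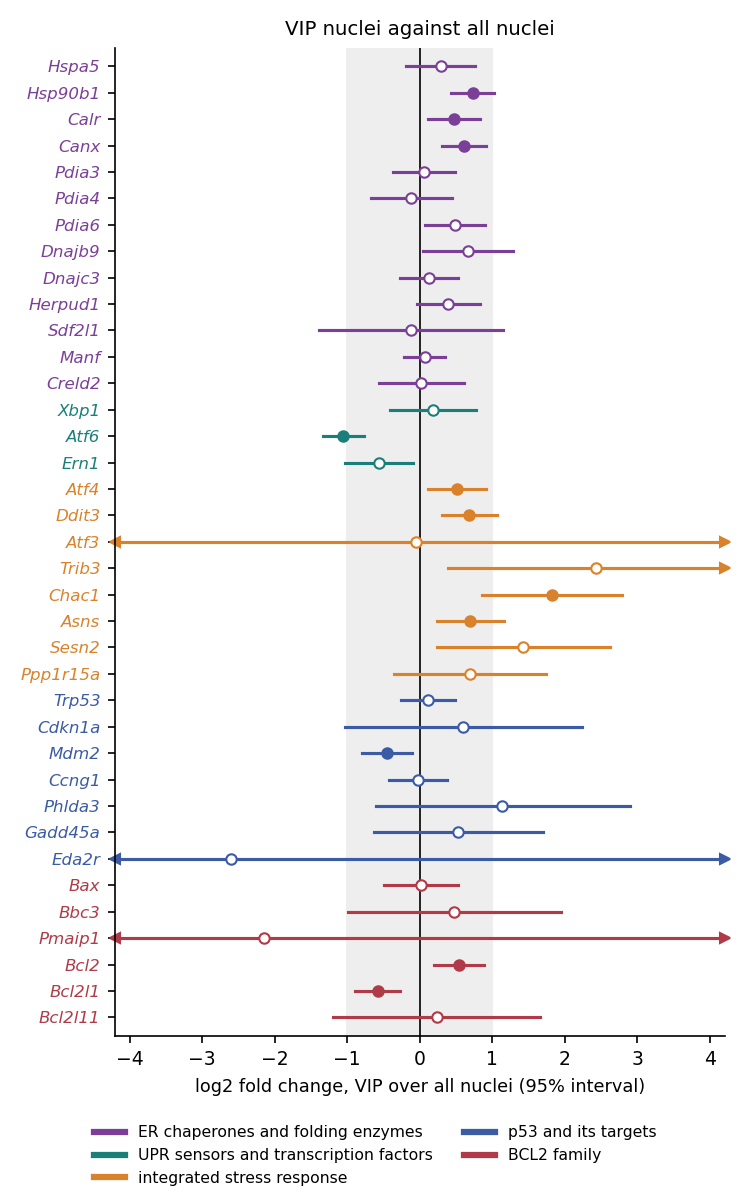
Log2 fold change of each of the 37 genes, VIP nuclei over all nuclei in the non-transduced and uninjected groups, with its 95% interval; colours mark roles and filled points an adjusted p below 0.05. Chac1 lies furthest above 0 of the filled points, at 1.82, and Atf6 furthest below, at -1.05.

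All nuclei hold other cell types, and their markers differed too. In mice given Kir2.1, 5 oligodendrocyte markers summed to 268 ± 110 CPM in VIP nuclei and 1963 ± 1022 CPM in all nuclei, 6 microglial markers to 149 ± 24.0 against 594 ± 131 CPM, and 5 excitatory neuron markers to 638 ± 98.8 against 1144 ± 155 CPM. Their part in the 11 calls was not tested. The calls of Atf4 and Calr were lost under DESeq2's Wald test (adjusted p = 0.0534 for Atf4), under DESeq2 size factors (0.0598 and 0.0585) and with no filter on low counts (0.0578 and 0.0506), and in 31 of 44 fits that each left out 1 library, those of Mdm2 in 11, Bcl2 in 2 and Asns in 1, and the other 6 members called kept theirs in all 44.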

How the data were processed

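RNA-seq counts per gene were deposited by the authors as one table of 79 libraries, not normalized. Reads were handled with cutadapt 1.18, STAR 2.5.3a and HOMER 4.9.1 on mm10, per the submitters' processing notes; the annotation and the use of strand are not given in the sources used here. Of the gene identifiers, 55154 matched GENCODE vM21 and 181 did not.

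Genes were filtered with filterByExpr (minimum count 10, minimum total 15) and scaled by TMM. The test was the quasi-likelihood F test of edgeR 4.0.16 in R 4.3.3, with Benjamini-Hochberg adjustment over all genes and a threshold of 0.05. VIP groups, neuron groups and all-nuclei groups were each fitted together, as set in the design. VIP nuclei against all nuclei was fitted on the 44 non-transduced and uninjected libraries, and the interaction of vector and population on the 35 transduced ones. The 95% intervals invert the same test. Tests were checked on simulated counts. DESeq2 1.42.0, its size factors, no filter, only the groups compared, sex, a replicate block and left-out libraries were the alternatives. Males alone were fitted for the comparisons with no AAV. A stricter correlation limit, which leaves out 9 libraries that stand apart, was added after seeing the data, since the planned limit left out 0. Replicates are called biological in the titles but are not linked to mice, and p-values reflect only how libraries of a group vary.

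The members and lists were chosen with earlier results of these data known. Members past the threshold were named, or the 2 with the smallest p where none passed, plus the narrowest and widest intervals.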

Additional observations from a re-analysis of the deposited data

Results flagged for a closer look

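Among 64 combinations of a named gene and a group of 4 to 10 libraries, 5 held a library far from the others of its group. The limit used gives about 1 in 20 by chance for normally distributed values. CPM were not shown to be so, and 4 of the 5 libraries were high, so the count is not compared with chance. Bcl2 was at 45.5 CPM in Kir2.1 transduced neuron library 6, and the other 7 libraries lay between 12.5 and 23.4 CPM. Asns was at 159 CPM in non-transduced VIP library 10 of Kir2.1 mice, against 18.8 to 81.0 CPM in the others. In all non-transduced nuclei of Kir2.1 mice, Calr was at 239 CPM in library 4 (others 78.6 to 162 CPM) and Mdm2 at 122 CPM in library 2 (others 48.9 to 76.6 CPM). Pdia3 was at 38.8 CPM in library 1 of all non-transduced nuclei of mutant mice, against 106 to 156 CPM in the others.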

How the results depend on the processing

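No value past the threshold changed direction under the alternatives run. Bcl2 between vectors in non-transduced VIP nuclei, at 0.03 and not called, ran from -0.07 to 0.22 when each library was left out. In transduced VIP nuclei the count of members called was 1, and 0 with only the 2 groups compared (Bcl2 log2 difference -1.13, adjusted p = 0.0506). In transduced neurons it was 2 (Bcl2 and Pdia6) under DESeq2's Wald test, and 1 to 2 when each library was left out. It was also 2 without Kir2.1 library 10, the only neuron library that stands apart and so already among those left out. For transduced against non-transduced Kir2.1 VIP nuclei it was 1 (Bcl2) under the Wald test, under DESeq2 size factors and without the libraries that stand apart, and 0 to 1 when each library was left out. Between VIP and all nuclei it ran from 8 to 14 over 6 alternatives. Why these counts moved was not tested.

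With the replicate number as a block, transduced VIP nuclei gave 0 members called (Bcl2 -1.13, adjusted p = 0.216) and 145 genes against 294, transduced neurons 538 genes against 898, and transduced against non-transduced Kir2.1 VIP nuclei 1 member (Bcl2, adjusted p = 0.0340), and Atf4 lost its call between VIP and all nuclei (adjusted p = 0.0648). The numbers were not taken to pair the samples: between vectors in transduced VIP nuclei 0 of 9 pairs correlated above 0.1, and between transduced and non-transduced Kir2.1 nuclei 1 of 10, with 6 of 10 libraries closest to their own number; for the mutant it was 1 of 9 pairs, with 7 of 9 closest to their own number, a hint from the data and not from the design. DESeq2 called 1388 genes in transduced neurons, 14 in non-transduced VIP nuclei and 2 in all non-transduced nuclei, where edgeR called 898, 0 and 0. Against no AAV, DESeq2 called 155, 63, 52, 78, 266 and 357 genes in Kir2.1 and mutant transduced VIP, Kir2.1 and mutant non-transduced VIP and all nuclei, where edgeR called 47, 6, 2, 0, 38 and 48. The chaperone medians against no AAV kept their sign without each uninjected library, at -0.70 to -0.32 in Kir2.1 and -0.84 to -0.40 in mutant transduced VIP nuclei. Libraries of 50 to 100 nuclei leave genes such as Atf3, Pmaip1 and Eda2r near 0 counts, and the intervals of Atf3 and Pmaip1, where tested, were wide.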
